A study of Mus musculus with 8 samples.

Results

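The comparison set 2 libraries of Nfkbia knockout LT-HSCs (KO1 and KO2) against 3 wild-type libraries (WT1, WT2 and WT3), 5 of the 8 bulk RNA-seq samples of the series; the heterozygous libraries were left out. Genes were kept when they had 10 or more reads summed over the 5 libraries, which left 19238 of 55487 genes. Each library came from 500 long-term hematopoietic stem cells (LT-HSCs) sorted from the fetal liver of mouse embryos at E14.5 as Lin- SCA1+ cKIT+ CD48- CD150+ cells. The knockout is germline, so all cells of a KO embryo lacked the gene, and embryos came from matings of heterozygous parents. A further KO sample was discarded by the authors for sequencing quality. KO1, KO2 and WT3 are labelled female with polyA RNA as the molecule, whereas WT1 and WT2 are labelled male with total RNA. Sex and molecule label therefore cannot be told apart, and WT3 is the lone WT library that shares both with the KO. The methods give separate mice as the replicates of each genotype, and the labels tie no library to an animal or litter.

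Nfkbia encodes IκBα, the inhibitor that holds NF-κB dimers in the cytoplasm until the IKK complex marks it for degradation; NF-κB in turn switches on Nfkbia, which closes a feedback loop. NF-κB target genes encode cytokines, adhesion molecules, survival factors and the pathway's own subunits and inhibitors. LT-HSCs of the fetal liver are the source of lifelong blood formation and are known by surface genes such as Procr and Slamf1 and by transcription factors such as Hlf and Mecom.

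The promoter sequence is shown for Nfkbia, whose loss defines the KO, and for 3 genes of the pathway described below, because each holds a κB decamer, the short sequence that NF-κB dimers recognise. The 250 bases before the start site are from RefSeq (GRCm38.p6), read 5′ to 3′ on the gene's strand, with the decamer in capitals. The windows are chr12:55492648-55492897 on the minus strand (Nfkbia), chr12:111166120-111166369 on the plus strand (Traf3), chr17:45555450-45555699 on the plus strand (Nfkbie) and chr17:35194257-35194506 on the plus strand (Ltb).
Nfkbia: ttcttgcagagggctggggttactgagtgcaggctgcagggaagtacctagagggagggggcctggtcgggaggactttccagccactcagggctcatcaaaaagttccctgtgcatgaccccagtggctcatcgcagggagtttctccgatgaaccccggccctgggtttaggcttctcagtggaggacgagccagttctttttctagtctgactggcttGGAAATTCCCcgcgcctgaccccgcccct
Traf3: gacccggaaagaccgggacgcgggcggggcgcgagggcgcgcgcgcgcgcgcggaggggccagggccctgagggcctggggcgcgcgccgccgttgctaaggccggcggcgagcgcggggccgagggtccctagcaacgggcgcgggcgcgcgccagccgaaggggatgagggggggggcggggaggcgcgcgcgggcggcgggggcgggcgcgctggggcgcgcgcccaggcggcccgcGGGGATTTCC
Nfkbie: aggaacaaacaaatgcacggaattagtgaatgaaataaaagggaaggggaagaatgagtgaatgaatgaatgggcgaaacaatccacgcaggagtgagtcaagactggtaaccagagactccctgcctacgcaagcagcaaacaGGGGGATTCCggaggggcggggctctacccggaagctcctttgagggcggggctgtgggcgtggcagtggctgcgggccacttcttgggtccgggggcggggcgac
Ltb: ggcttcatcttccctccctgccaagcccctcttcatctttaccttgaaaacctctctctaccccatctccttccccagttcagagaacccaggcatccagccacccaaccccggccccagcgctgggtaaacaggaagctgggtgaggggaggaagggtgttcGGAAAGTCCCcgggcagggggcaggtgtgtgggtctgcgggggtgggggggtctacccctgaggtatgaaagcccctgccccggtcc
The decamer, searched on both strands, was present in this window for 8.23% of all genes of the promoter table and for 10.4% of the 12127 tested genes with an entry. A match is a description of letters and not of a bound site.

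Nfkbia (ENSMUSG00000021025, chr12:55489410-55492647, GRCm38) followed the genotype labels. It had 1 read in KO1 and 0 in KO2, against 968 reads in WT1, 1621 in WT2 and 450 in WT3. In CPM (reads scaled to library size with TMM factors), the KO libraries together had 0.0259 CPM (exact Poisson 95% interval 0.000656 to 0.144, counting error only) and the WT libraries 48.0 ± 23.6 CPM (SD, n = 3). The groups did not overlap, and the level of WT3 was the lowest of the WT. The exact two-sided permutation p was 0.2, the smallest that 2 against 3 libraries allow. In the edgeR fit the gene was lower in KO than in WT3 (adjusted p = 0.029) and lower than in WT1 and WT2 (adjusted p = 0.0162).

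WT3 lay further from WT1 and WT2 than either KO library did. Depth was similar, with 17895973 to 21720972 reads per library. The root mean square difference of log2 CPM over all genes was 0.885 between WT1 and WT2, 1.72 between WT1 and WT3 and 1.75 between WT2 and WT3. KO1 lay at 0.906 from WT1 and 0.881 from WT2, about as near as those 2 WT libraries were to each other, and at 1.72 from WT3. KO2 lay at 1.15 from WT1, 1.18 from WT2 and 1.37 from WT3. The first principal component, with 60.2% of the variance, placed WT3 at 164.5, KO2 at 27.6, WT1 at -62.0, KO1 at -62.3 and WT2 at -67.7.

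**Figure D1:**
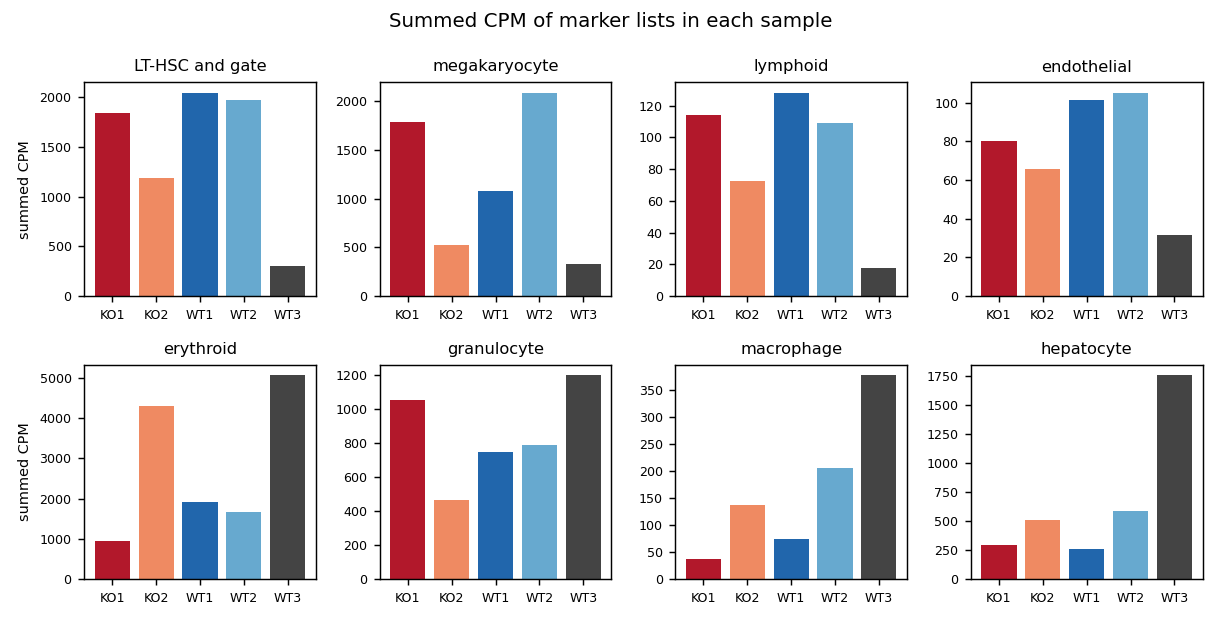
Bars give the summed CPM of each marker list (y axis, linear, each panel with its own scale) in KO1, KO2, WT1, WT2 and WT3. The LT-HSC list sums to 302.1 in WT3 and to 1190 to 2050 in the other libraries, while the hepatocyte list sums to 1760 in WT3 and to 260.8 to 589.6 in the others.

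WT3 also stood apart in the genes that define the sorted cells. The LT-HSC and gate genes summed to 302.1 CPM in WT3, against 2050 in WT1, 1973 in WT2, 1846 in KO1 and 1190 in KO2. Procr, the protein C receptor that marks fetal LT-HSCs, was at 8.94 CPM in WT3 and at 177 and 174 CPM in WT1 and WT2. Ptprc, the leukocyte antigen CD45, was at 20.6 CPM in WT3 and at 113 to 271 CPM in the other 4 libraries. The labelled cell type thus went with strong LT-HSC markers in WT1, WT2 and KO1, and with weak ones in WT3. Kit, which encodes the receptor cKIT used in the sort, was less different, at 155 CPM in WT3 and 178 to 244 CPM elsewhere.

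Marker lists of other fetal liver cells were highest in WT3 for some types and lowest for others. Albumin (Alb) was at 400 CPM in WT3 and 46.6 CPM in KO2, and at 0.222 to 0.587 CPM in KO1, WT1 and WT2. Afp, the fetal albumin-like protein of hepatoblasts, was at 583 CPM in WT3, 143 CPM in KO2 and under 10 CPM in the rest. The 17 hepatocyte markers summed to 1760 CPM in WT3 and 260.8 to 589.6 CPM elsewhere. Not all of them were highest there: Krt18 (15.5 CPM in WT3, 51.3 to 82.0 elsewhere), Dlk1 (74.1 CPM, 117 to 414 elsewhere) and Hnf4a (2.52 CPM, 2.89 to 10.2 elsewhere) were lowest in WT3. The erythroid list of 19 tested genes summed to 5073 CPM in WT3 and 4318 CPM in KO2, and to 931.9 to 1917 CPM in the other libraries. Its members were mixed. Klf1 (1090 CPM in WT3, 38.2 to 547 elsewhere) and Car1 (300 CPM, 1.96 to 97.1 elsewhere) were highest in WT3. Hbb-bt was highest in KO2 at 1000 CPM, against 635 CPM in WT1 and 320 CPM in WT3. Hba-a1, Hba-a2, Alas2, Slc4a1 and Epb42 were also highest in KO2. Macrophage markers summed to 377.3 CPM in WT3 and 36.12 to 206.2 CPM elsewhere, and granulocyte markers to 1198 CPM and 463.2 to 1055 CPM. The granulocyte members were mixed. Lyz2 (192 CPM in WT3, 274 to 585 elsewhere), Csf3r (6.20 CPM, 23.4 to 43.4 elsewhere) and Ltf (0.165 CPM, 3.74 to 20.6 elsewhere) were lowest in WT3. S100a8 was at 123 CPM in WT3 and 125 CPM in KO1, and Camp was highest in KO1 at 37.0 CPM. Like the LT-HSC list, other lists were lowest in WT3. Megakaryocyte markers summed to 329.3 CPM there and 528.3 to 2088 CPM elsewhere, and endothelial markers to 31.37 CPM and 65.92 to 105.3 CPM. Of the megakaryocyte members, Pf4, Itga2b, Gp9, Vwf, Selp, Nfe2, Tubb1 and Treml1 were lowest in WT3. Ppbp (2.91 CPM in KO2, 6.58 CPM in WT3), Clec1b (1.04 and 2.63 CPM), Gp1ba (8.47 and 10.6 CPM), Gp1bb and Gp6 were lowest in KO2. The endothelial members did not all follow their sum. Ecscr was at 4.44 CPM in WT3 and 30.5 to 67.4 CPM elsewhere. Flt1 (1.70 CPM, 0.0517 to 1.04 elsewhere) and Stab2 (4.22 CPM, 0.465 to 2.81 elsewhere) were highest in WT3. Plvap was at 18.5 CPM in WT3, within the 16.1 to 25.1 CPM of the rest. Lymphoid markers summed to 17.71 CPM in WT3 and 72.42 to 128.2 CPM elsewhere, and stromal markers to 5.265 CPM and 22.02 to 56.68 CPM. Their part in the results was not tested. In bulk RNA, fewer cells of a type and less RNA per cell cannot be told apart. The level in each library is given for the genes described, so that each WT library can be read on its own.

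The study's model has sex and genotype as terms. Its reference joined WT and HET libraries, female HET libraries among them, so its genotype term did not rest on WT3 alone. With these 5 libraries the genotype term of that model is the difference between KO and WT3, because both KO are female, and WT1 and WT2 add to it only through the estimate of the spread. Under that model 692 genes (3.6% of those tested) were called higher in KO and 14 (0.0728%) lower, where a call required a difference of more than 1 on the log2 scale and an adjusted p below 0.05. Against WT1 and WT2 in the same fit, 0 genes (0%) were called higher and 5 (0.026%) lower; 677 genes had an unadjusted p under 0.05, 297 higher and 380 lower. WT1 and WT2 differed from WT3 by more genes than the KO did, with 1593 (8.28%) called higher and 461 (2.4%) called lower. The higher share of these calls was 77.6% with TMM, 65.7% with RLE, 62.7% with upper quartile and 90.5% with library size scaling. With genotype alone, KO against the mean of the 3 WT gave 0 calls in each direction (0%) by edgeR, 179 genes at an unadjusted p under 0.05, and 5 calls by DESeq2. The calls against WT3 were not stable. None were made in the edgeR version 4 form of the fit, with all 8 libraries in the fit, without WT1 or without WT2. More were made without KO1, without KO2 and by DESeq2. Without WT3 the fit compared KO with WT1 and WT2 alone, so it held no call against WT3. Without WT1 or WT2 the spread came from KO1 and KO2 alone, and without a KO from WT1 and WT2 alone. Calls with 1 library left out, in either contrast, are thus not like for like. Against WT1 and WT2 the 5 calls became 0 without either of them, 1195 without KO1 and 57 without KO2.

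**Figure D2:**
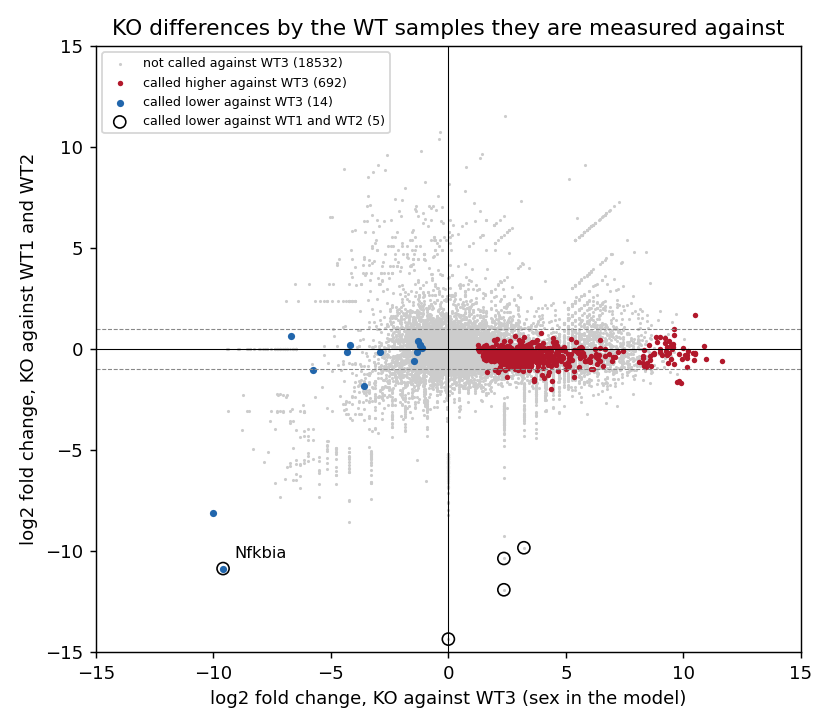
Each point is 1 of 19238 genes, with its log2 fold change in KO against WT3 on the x axis and against WT1 and WT2 on the y axis; dashed lines mark a 2-fold difference on the y axis. The 692 genes called higher against WT3 (red) lie mostly between the dashed lines, and Nfkbia is the lone gene that is called on both axes (circled blue point).

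The 692 higher genes rested on WT3. Their median log2 difference between the KO mean and WT3 was 3.01, whereas it was -0.362 against WT1 and -0.353 against WT2. The KO mean was above WT1 for 112 of the 692 (16.2%) and above WT2 for 89 (12.9%), beside 49.2% and 48.2% of all genes. Within a 2-fold range of WT1 and WT2 stood 663 of them (95.8%, beside 81.9% of all genes). Of the 692, 691 (99.9%, beside 8.28% of all genes) were also called higher in WT1 and WT2 than in WT3. Both contrasts subtract the same WT3 library, so that overlap is not independent evidence. None of the 692 was called in KO against WT1 and WT2, in either direction. Their median level was 33.4 CPM in KO1, 23.2 in KO2, 35.8 in WT1, 36.1 in WT2 and 3.84 in WT3. KO1 was above KO2 in 625 of the 692 (90.3%, beside 50.9% of all genes).

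Both KO libraries lay above all 3 WT for 1131 genes (5.88%) and below all 3 for 903 (4.69%). Every gene called against WT3 already had both KO beyond WT3, which left only WT1 and WT2 to pass. The shares over all genes are therefore not a like comparison for the called genes. Among the 692 called higher, 23 (3.32%) had both KO above all 3 WT, a smaller share than the background of 5.88%. Among the 14 called lower, 7 had both KO below all 3 WT. Of the 5 genes called lower against WT1 and WT2, 4 are Y-linked (Kdm5d, Eif2s3y, Uty and Ddx3y) and follow the labelled sex of the libraries; Nfkbia is the fifth. Nfkbia was the only gene called the same way in both contrasts.

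Of the NF-κB subunits and IκB proteins, 2 of the 13 tested members were called higher in KO than in WT3 (Relb and Nfkbie) and 1 lower (Nfkbia), beside 3.6% and 0.0728% of all genes. Relb, the subunit of the non-canonical pathway, was at 19.2 and 15.5 CPM in the KO libraries, against 14.54 CPM in WT1, 11.1 CPM in WT2 and 2.14 CPM in WT3. Both KO were thus above all WT, by a wide margin only over WT3. Its log2 fold change was 3.01 ± 0.46 (SE) against WT3 (adjusted p = 0.0363) and 0.43 ± 0.31 against WT1 and WT2 (adjusted p = 0.927), and with library size alone as the scaling the KO and WT values overlapped. Nfkbie, which encodes the inhibitor IκBε and whose promoter is shown above, was at 35.4 and 25.8 CPM in KO1 and KO2, 30.7 and 31.0 CPM in WT1 and WT2, and 6.20 CPM in WT3. The KO values fell on either side of WT1 and WT2, and the log2 fold change was 2.30 ± 0.35 against WT3 (adjusted p = 0.0355) and -0.01 ± 0.25 against WT1 and WT2.

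The subunit genes Rela and Nfkb1 were not called in any contrast. Rela was at 128 and 139 CPM in KO and 120 to 138 CPM in WT. Nfkb1 was at 138 and 135 CPM in KO, 167 and 161 CPM in WT1 and WT2 and 97.6 CPM in WT3. Nfkb2, which encodes the p100 precursor, was at 19.3 CPM in KO1 but KO2 had 7.90 CPM, within the WT range of 5.37 to 8.86 CPM. The 2 KO libraries thus differed from each other more than KO2 differed from WT.

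Among the IKK complex, TRAF adaptors, ubiquitin editors and other upstream genes, 8 of 45 (17.8%, beside 3.6% of all genes) were called higher against WT3 and 0 lower, and 0 were called against WT1 and WT2. The median log2 fold change of the list was 0.79 against WT3, where the median of all genes was 0.18, and -0.04 against WT1 and WT2, where the median of all genes was 0.00. Plcg1, a phospholipase that relays receptor signals, was at 37.4 and 32.5 CPM in KO, 32.9 and 41.1 CPM in WT1 and WT2, and 5.92 CPM in WT3. Tnip3, a partner of the ubiquitin editor A20, was at 19.3 and 20.3 CPM in KO, 20.9 and 21.1 CPM in WT1 and WT2, and 0.110 CPM in WT3. In these genes WT1, WT2 and both KO formed 1 level and WT3 another.

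Traf3, an adaptor that restrains the non-canonical pathway by keeping its kinase NIK low, showed a different order. It was at 21.3 and 22.4 CPM in KO, against 9.396 CPM in WT1, 11.2 CPM in WT2 and 12.1 CPM in WT3. The 2 KO values were close together and both above all WT under all 4 scalings. The log2 fold change was 0.85 ± 0.34 against WT3 (adjusted p = 0.193), 1.09 ± 0.27 against WT1 and WT2 (adjusted p = 0.927, unadjusted p = 0.00692) and 1.005 ± 0.32 against the mean of the 3 (unadjusted p = 0.0201), so no contrast passed the adjusted threshold. Ticam1, the adaptor TRIF of the receptors TLR3 and TLR4, was at 9.71 and 10.8 CPM in KO and at 6.36, 6.47 and 3.73 CPM in WT1, WT2 and WT3. Tab1, a partner of the kinase TAK1, was at 34.6 and 33.8 CPM in KO and 26.38 to 28.05 CPM in WT. These 3 were the members of the 45 with both KO above all WT (6.67%, beside 5.88% of all genes), and none had both below.

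**Figure D3:**
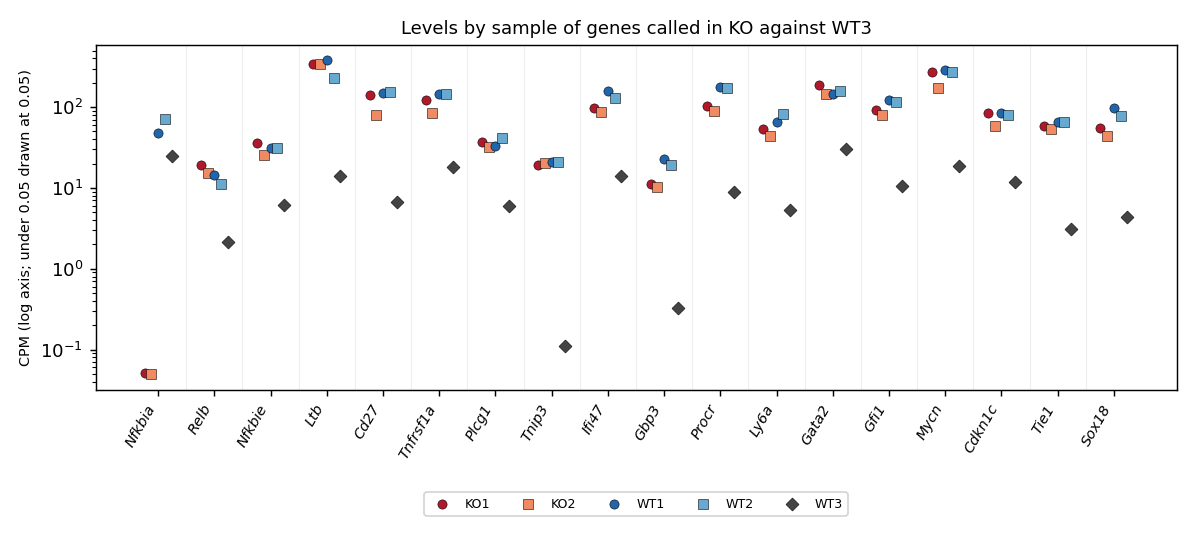
Points give the CPM (y axis, log scale, values under 0.05 drawn at 0.05) of 18 genes called in KO against WT3, in each of the 5 libraries. For all of them but Nfkbia, the diamond of WT3 lies below the other 4 points.

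TNF receptors and ligands, which feed into NF-κB, had 11 of 28 members (39.3%, beside 3.6% of all genes) called higher against WT3 and 0 lower, with a median log2 fold change of 3.14. Against WT1 and WT2 the median was -0.19, with 0 calls. Ltb, which encodes the ligand lymphotoxin beta and whose promoter is shown above, was at 343 and 342 CPM in KO, 379 and 232 CPM in WT1 and WT2, and 14.0 CPM in WT3. The KO values lay between WT1 and WT2. The log2 fold change was 4.61 ± 0.42 against WT3 (adjusted p = 0.029) and 0.17 ± 0.26 against WT1 and WT2 (adjusted p = 0.958). Cd27, a receptor of early lymphoid and stem cells, was at 142 and 78.9 CPM in KO, 148 and 152 CPM in WT1 and WT2, and 6.75 CPM in WT3. Tnfrsf1a, the main TNF receptor, was at 121 and 83.8 CPM in KO, 145 and 144 CPM in WT1 and WT2, and 18.2 CPM in WT3. Tnfsf9, the ligand 4-1BBL, was at 15.1 and 9.61 CPM in KO, 21.7 and 17.7 CPM in WT1 and WT2, and 0.548 CPM in WT3. Cd27, Tnfrsf1a and Tnfsf9 were lower in both KO than in both male WT, though not past the threshold. Fas, a death receptor, had both KO above all WT at low levels, 1.14 and 1.61 CPM against 0.196, 0.354 and 0 CPM in WT1, WT2 and WT3. The 4 members Fas, Tnfsf4, Tnfrsf12a and Tnfrsf17 had both KO above all WT (14.3%, beside 5.88% of all genes) and none had both below.

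Of the textbook NF-κB target genes, 6 of 32 (18.8%, beside 3.6% of all genes) were called higher against WT3 and 0 lower, 0 were called against WT1 and WT2, and the list medians were 1.78 and -0.31. 1 member lay above all WT in both KO (3.12%, beside 5.88% of all genes) and another below (3.12%, beside 4.69%). The higher was Cxcl10, a chemokine, at 0.982 and 1.09 CPM in KO against 0.587, 0.487 and 0.877 CPM in WT1, WT2 and WT3, which was 19 and 21 reads against 11 to 16, and it was not called in any contrast. The lower was Vcam1, a vascular adhesion molecule that macrophages also carry. Vcam1 was at 1.19 and 2.65 CPM in KO, 3.87 CPM in WT1, 15.7 CPM in WT2 and 32.5 CPM in WT3. Its log2 fold change against the mean of the WT was -3.17 ± 1.03 (unadjusted p = 0.0225), and it was not called in any contrast. Over the same libraries the macrophage markers summed to 36.12, 136.5, 73.11, 206.2 and 377.3 CPM in KO1, KO2, WT1, WT2 and WT3. The part of those cells in the Vcam1 value was not tested.

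The NF-κB genes that the study names from these samples are not independent evidence of a direction, since they were chosen on these libraries. Of the 16, 8 (50.0%, beside 3.6% of all genes) were called higher against WT3 and 1, Nfkbia, lower; against WT1 and WT2, 0 were called higher and 1, Nfkbia, lower. Their median log2 fold change was 2.49 against WT3, -0.18 against WT1 and WT2, and 0.30 against the mean of the WT. Tnfrsf13c, the BAFF receptor, was at 12.6 and 14.8 CPM in KO, 17.7 and 17.1 CPM in WT1 and WT2, and 1.43 CPM in WT3. Plcg2 was at 239 and 137 CPM in KO, 198 and 235 CPM in WT1 and WT2, and 25.4 CPM in WT3. Relb and Ticam1 were the members with both KO above all WT (12.5%, beside 5.88% of all genes).

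Interferon-stimulated genes had 18 of 62 members (29.0%, beside 3.6% of all genes) called higher against WT3 and 0 lower, with a median log2 fold change of 2.33. Against WT1 and WT2 the median was -0.59, and 5 of 62 members had a value above 0, beside 49.8% of all genes. At an unadjusted p under 0.05, 12 were lower and 0 higher, beside 380 lower and 297 higher of all 19238 genes. Of the 62, 0 were called against WT1 and WT2. Ifi47, an interferon-inducible GTPase, was at 98.6 and 86.5 CPM in KO, 159 and 129 CPM in WT1 and WT2, and 14.1 CPM in WT3. Gbp3, a guanylate-binding protein, was at 11.1 and 10.2 CPM in KO, 23.1 and 19.1 CPM in WT1 and WT2, and 0.329 CPM in WT3. The log2 fold change of Gbp3 was 4.99 ± 0.51 against WT3 (adjusted p = 0.029) and -0.99 ± 0.29 against WT1 and WT2 (adjusted p = 0.927, unadjusted p = 0.0151). In both genes the KO lay between the male and the female WT. None of the 62 had both KO above all WT, beside 5.88% of all genes.

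Of the HSC transcription factors, 20 of 39 (51.3%, beside 3.6% of all genes) were called higher against WT3 and 0 lower. Their medians were 2.00 against WT3 and -0.25 against WT1 and WT2. In the latter, 11 of 39 had a value above 0, beside 49.8% of all genes. Gata2, which stem cells need to survive, was at 190 and 146 CPM in KO, 146 and 157 CPM in WT1 and WT2, and 29.9 CPM in WT3. Gfi1, a repressor that restrains stem cell proliferation, was at 92.6 and 80.0 CPM in KO, 121 and 115 CPM in WT1 and WT2, and 10.4 CPM in WT3. Mycn was at 274 and 174 CPM in KO, 289 and 272 CPM in WT1 and WT2, and 18.5 CPM in WT3. Its paralog Myc ran the other way, at 249 CPM in KO1, 887 CPM in KO2, 279 CPM in WT1, 174 CPM in WT2 and 1489 CPM in WT3. The Myc levels of WT3 and KO2 were thus high, and no contrast called the gene.

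HSC surface and cytokine receptor genes had 13 of 29 members (44.8%, beside 3.6% of all genes) called higher against WT3 and 0 against WT1 and WT2. Procr was at 102.2 and 90.5 CPM in KO, between the male WT and WT3; its log2 fold change was 3.43 ± 0.25 against WT3 (adjusted p = 0.029) and -0.87 ± 0.17 against WT1 and WT2 (adjusted p = 0.927, unadjusted p = 0.00242). Ly6a, which encodes the gate marker SCA1, was at 54.2 and 43.9 CPM in KO, 65.6 and 81.9 CPM in WT1 and WT2, and 5.26 CPM in WT3. Of the 10 LT-HSC and gate genes, 8 (80.0%, beside 3.6% of all genes) were called higher in KO than in WT3, so these calls fall on the genes that also mark WT3 as apart.

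Among genes tied to HSC dormancy, 15 of 32 (46.9%, beside 3.6% of all genes) were called higher against WT3 and 0 lower, with a median of 2.82. The median was -0.38 against WT1 and WT2, where 5 of 32 had a value above 0, beside 49.8% of all genes. Cdkn1c, a cell cycle inhibitor of resting stem cells, was at 85.6 and 58.6 CPM in KO, 84.2 and 80.7 CPM in WT1 and WT2, and 11.9 CPM in WT3. Neo1, a receptor for netrins and related ligands, was at 11.4 and 16.2 CPM in KO, 46.4 and 36.7 CPM in WT1 and WT2, and 1.10 CPM in WT3. Neo1 was thus further from WT1 and WT2 than the other examples; its log2 fold change was -1.59 ± 0.29 against WT1 and WT2 (adjusted p = 0.927, unadjusted p = 0.00162) and 3.64 ± 0.45 against WT3 (adjusted p = 0.029).

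Endothelial and AGM genes, which mark the vessel wall where HSCs first emerge, had 18 of 46 members (39.1%, beside 3.6% of all genes) called higher against WT3 and 0 lower, with medians of 2.66 against WT3 and -0.46 against WT1 and WT2. Tie1, an angiopoietin receptor family gene, was at 58.1 and 54.0 CPM in KO, 64.9 and 66.0 CPM in WT1 and WT2, and 3.07 CPM in WT3. Sox18, a transcription factor of vessels, was at 54.7 and 44.0 CPM in KO, 96.3 and 77.2 CPM in WT1 and WT2, and 4.33 CPM in WT3. None of the 46 had both KO above all WT, beside 5.88% of all genes. Of the 16 AGM, retinoic acid and dormancy genes that the study names from these samples, 9 (56.2%, beside 3.6% of all genes) were called higher against WT3, 0 were called against WT1 and WT2, and none had both KO beyond all WT; this list too was chosen on these libraries. Retinoic acid genes had 2 of 22 members (9.09%, beside 3.6% of all genes) called higher against WT3, and polycomb genes 0 of 33.

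**Figure D4:**
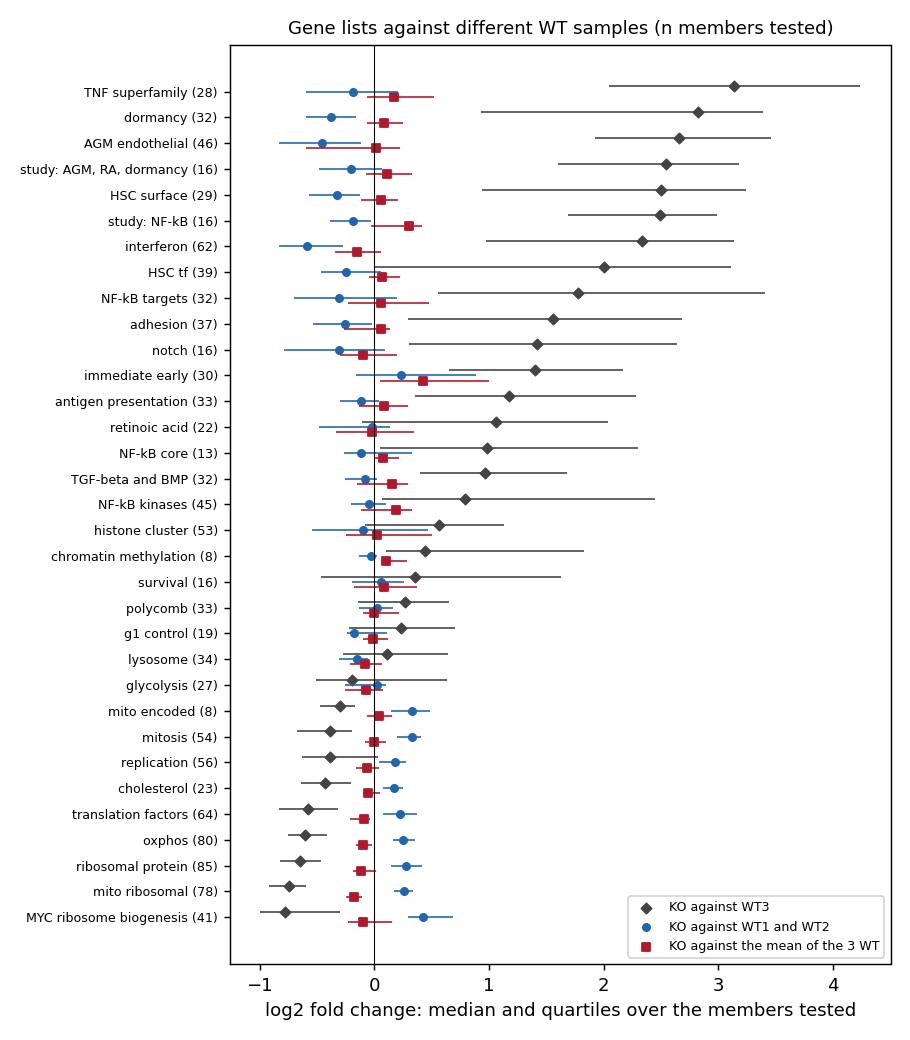
Points give the median and lines the quartiles of the log2 fold change (x axis) over the tested members of 33 gene lists, in KO against WT3, against WT1 and WT2, and against the mean of the 3 WT. The medians against WT3 run from -0.78 to 3.14, while those against WT1 and WT2 run from -0.59 to 0.43.

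Growth lists pointed in the opposite direction in both contrasts. Medians against WT3 and against WT1 and WT2 were -0.65 and 0.27 for 85 cytosolic ribosomal proteins, -0.75 and 0.26 for 78 mitochondrial ribosomal proteins, and -0.60 and 0.24 for 80 oxidative phosphorylation genes. They were -0.78 and 0.42 for 41 MYC and ribosome biogenesis genes, and -0.39 and 0.33 for 54 mitosis genes. Across these 5 lists only Rplp0 was called lower in KO than in WT3, 2 MYC-list members (Mycn and Mxd4) were called higher, and 0 were called against WT1 and WT2. The medians kept their sign under all 4 scalings. Over 33 lists, 30 had medians of opposite sign against WT3 and against WT1 and WT2, while the medians against the mean of the WT stayed between -0.18 and 0.42. Signs were taken around 0, though the median of all genes against WT3 was 0.18. Relative to all genes, the lysosome median was lower in both contrasts (-0.08 and -0.15). The sign changed with the scaling for glycolysis in both contrasts, and for polycomb and survival against WT1 and WT2.

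Of the 23 called higher against WT3 with both KO above all WT, 21 (91.3%, beside 81.9% of all genes) were within a 2-fold range of WT1 and WT2. Postn, a matrix protein of stromal cells, was at 42.7 and 51.5 CPM in KO, 38.5 CPM in WT1, 16.1 CPM in WT2 and 3.07 CPM in WT3, with a log2 fold change of 3.94 ± 0.65 against WT3 (adjusted p = 0.0404) and 0.79 ± 0.42 against WT1 and WT2 (adjusted p = 0.927). Dusp6, a phosphatase that limits ERK signalling, was at 48.3 and 56.3 CPM in KO, 48.0 and 39.1 CPM in WT1 and WT2, and 12.7 CPM in WT3. KO1 and WT1 were nearly equal, and under RLE scaling the groups overlapped. Klf6, a zinc finger factor of the immediate early class, was at 77.2 and 125 CPM in KO, 72.3 and 74.6 CPM in WT1 and WT2, and 26.6 CPM in WT3. Of 16 of these 23 genes with a promoter entry, 1 (Sipa1) held the κB decamer, and of 530 of the 692 it was 79 (14.9%, beside 10.4% of tested genes).

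Among the 14 genes called lower against WT3, Rplp0, a stalk protein of the large ribosomal subunit, was at 621 and 596 CPM in KO, 682 and 684 CPM in WT1 and WT2, and 1529 CPM in WT3. Snapc1, a subunit of the complex that starts small nuclear RNA transcription, was at 15.1 and 17.8 CPM in KO, 24.7 and 25.1 CPM in WT1 and WT2, and 45.5 CPM in WT3; its log2 fold change was -1.47 ± 0.26 against WT3 (adjusted p = 0.0467) and -0.60 ± 0.22 against WT1 and WT2 (adjusted p = 0.927). Ifi202b, an interferon-inducible DNA sensor, had 0 reads in both KO and 18, 59 and 119 reads in WT1, WT2 and WT3. Rplp0 has many processed pseudogenes in the mouse genome, and reads that match those equally well are left out of counts of unique reads.

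**Figure D5:**
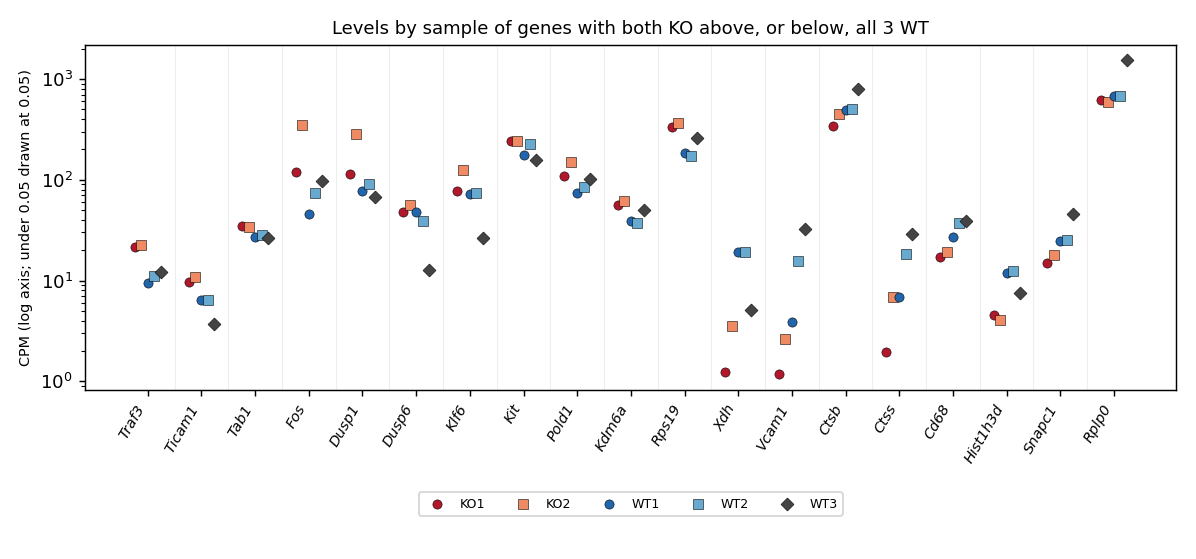
Points give the CPM (y axis, log scale) of 19 genes with both KO above, or both below, all 3 WT, in each library. Traf3, Fos and Dusp1 are higher in both KO than in each WT, and Xdh, Vcam1 and Cd68 are lower.

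Immediate early genes were the list with the highest median against the mean of the WT, 0.42. Of 30 members, 6 had both KO above all WT (20.0%, beside 5.88% of all genes): Fos, Dusp1, Dusp6, Nr4a2, Klf6 and Socs3. Nr4a2 overlapped with library size scaling. Fos, the AP-1 subunit, was at 119 and 345 CPM in KO, against 45.2, 73.9 and 96.9 CPM in WT1, WT2 and WT3. Dusp1, a phosphatase of stress kinases, was at 113 and 281 CPM in KO, against 77.8, 90.1 and 68.0 CPM in WT1, WT2 and WT3. KO2 was far above KO1 in both genes, and KO1 exceeded the highest WT by a smaller margin. The log2 fold change against the mean of the WT was 1.69 ± 0.53 for Fos (unadjusted p = 0.02) and 1.33 ± 0.41 for Dusp1 (unadjusted p = 0.0184), and neither was called in any contrast. Atf3, another stress-induced factor, had both KO below all WT at under 1 CPM.

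Lysosomal genes had 5 of 34 members with both KO below all WT (14.7%, beside 4.69% of all genes) and none above: Ctsb, Ctsl, Ctss, Cd68 and Atp6v1h. For Ctsl and Atp6v1h the KO and WT values overlapped with library size scaling. Cd68, a glycoprotein abundant in macrophages, was at 17.1 and 19.2 CPM in KO, 27.1 and 37.1 CPM in WT1 and WT2, and 39.2 CPM in WT3. Ctss, a cathepsin of antigen-presenting cells, was at 1.96 and 6.81 CPM in KO, 6.85 and 18.3 CPM in WT1 and WT2, and 29.2 CPM in WT3. Ctsb, a cathepsin of most cells, was at 340 and 450 CPM in KO, 488 and 499 CPM in WT1 and WT2, and 796 CPM in WT3. The macrophage sums given above ranged from 36.12 to 136.5 CPM in KO and from 73.11 to 377.3 CPM in WT, and their part in these values was not tested. None of the 34 genes was called in KO against WT3 or against WT1 and WT2.

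Some named genes differed more from WT1 and WT2 than from WT3, with both KO beyond all 3 WT, without passing the adjusted threshold. Xdh, which encodes xanthine dehydrogenase of purine breakdown, was at 1.24 and 3.53 CPM in KO, 19.0 and 19.1 CPM in WT1 and WT2, and 5.10 CPM in WT3. Its log2 fold change was -2.997 ± 0.56 against WT1 and WT2 (adjusted p = 0.927, unadjusted p = 0.00179) and -1.09 ± 0.63 against WT3 (adjusted p = 0.327). Rps19, a protein of the small ribosomal subunit, was at 333 and 368 CPM in KO, 184 and 171 CPM in WT1 and WT2, and 258 CPM in WT3. It was 1 of 3 of the 85 ribosomal proteins with both KO above all WT (3.53%, beside 5.88% of all genes), and 3 had both below (3.53%, beside 4.69%). Kdm6a, an X-linked demethylase of H3K27, was at 56.2 and 61.7 CPM in KO, 39.2 and 37.3 CPM in the male WT, and 50.7 CPM in the female WT3. For Kdm6a the order followed the labelled sex as well as the genotype. Sex and molecule label differ along with genotype in every comparison with WT1 and WT2, and their parts cannot be told apart there.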

How the data were processed

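Gene expression was measured by bulk RNA-seq (50-bp single-end reads). Per the study's methods, the authors trimmed reads with Trim Galore 0.6.6, aligned them with STAR 2.7.8 to GRCm38 and deposited raw counts of unique reads per Ensembl gene, unpooled; the strand column is not given in the sources used here, so genes that overlap may share reads. The authors' sex-corrected table was not used. Counts were tested with edgeR 4.0.16 in R 4.3.3 (TMM, quasi-likelihood test, legacy form, Benjamini-Hochberg) in a fit of KO, female WT and male WT with 2 residual degrees of freedom, so WT3, alone in its group, was assumed to vary like the others. A call required a difference of more than 1 (log2) and an adjusted p below 0.05. Log2 CPM used a prior count of 2. DESeq2 1.42.0 was an alternative. Positions for 55227 genes came from the GENCODE annotation of GRCm38. Members and lists were chosen with earlier results of these data known. Named genes were Nfkbia, up to 10 per direction with the largest change against WT3 among called genes with both KO beyond all WT at a mean of 5 CPM or more, per list the 2 members with the lowest p in each contrast and the 2 of highest level, and the study's genes. Nfkb2, Tab1, Dusp1, Dusp6, Klf6, Ifi202b, Ctss, Xdh, Atf3, Cxcl10, Hnf4a, Kit and Alb fall outside this rule and were chosen after their values were seen. Marker genes given as examples or exceptions of the cell type lists were also chosen after their values were seen. Scripts were tested on simulated data. Alternatives were the block, scaling, filters, DESeq2, all 8 libraries and leaving out each library. A few genes are not reported here.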

Additional observations from a re-analysis of the deposited data

How the results depend on the processing

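The 706 calls of KO against WT with sex in the model became 0 with genotype only, 0 in the edgeR version 4 form, 0 with all 8 libraries in the fit, 2539 with DESeq2, 2141 with apeglm shrinkage and 1417 with no filter beyond 1 read. Leaving out 1 library gave 0 (without WT1 or WT2) to 4538 (without KO2), with 2242 without KO1 and 5 without WT3. The 5 calls against WT1 and WT2 became 38 with DESeq2, 0 with 10 or more reads in every sample, 2 with all 8 libraries and 0 (without WT1 or WT2) to 1195 (without KO1) when 1 library was left out, with 57 without KO2. The 2054 calls between WT1 and WT2 and WT3 became 807 in the version 4 form, 4193 with DESeq2, 3234 with no filter, 0 with all 8 libraries and 0 (without WT1 or WT2) to 5279 (without KO1) with 1 library left out, with 4986 without KO2. The 0 calls against the mean of the 3 WT became 5 with DESeq2 and 0 to 5 (without WT3) with 1 library left out. With 10 or more reads in every sample, genes with both KO above all WT fell to 576 and those below to 494; with 1 library left out they were 2011 to 3922 and 1627 to 3551, where fewer samples had to be exceeded. The lists with opposite medians numbered 19 to 29 with 1 library left out. The log2 fold change of Nfkbia missed the threshold at -10.5 with genotype only, -9.58 in the version 4 form and -9.58 with all 8 libraries, and ranged from -12.0 to -8.73 with 1 library left out; against WT1 and WT2 it was -10.8 with all 8 libraries, past the threshold no longer, and -13.2 to -10.0. The first component held 56.3% with scaled genes, 67.3% over the 500 most variable genes and 78.4% with 10 or more reads in every sample, where the ratio of KO distances to WT3 and to WT1 and WT2 rose from 1.5 to 1.96. The median of all genes against WT3 was 0.18 with TMM, 0.08 with RLE, 0.10 with upper quartile and 0.47 with library size scaling. Without WT3 no female WT was left, so the 5 calls there are of KO against WT1 and WT2. In the fits with sex, leaving out WT1 or WT2 left KO1 and KO2 alone to give the spread. Leaving out a KO left WT1 and WT2 alone to give it, so these counts are not like for like. Unless stated, the cause was not tested.

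The labels do not say that a replicate number marks a shared litter or day. With 2 KO libraries the deviations of one mirror the other's, so KO1 correlated at 0.5418 with WT1 and 0.5922 with WT2 and KO2 at the same values below 0 (11958 genes, which are not independent), and the check cannot speak to pairing. With the replicate block and genotype, where WT3 has no partner and drops out of the contrast, 35 genes were called in place of 706, and 35 in place of 0 against the mean of the WT. Log2 fold changes that turned with the replicate block were Nfkbie -0.0291, Cd27 -0.504, Tnfsf9 -0.699, Tnfrsf13c -0.351, Tnfrsf1a -0.519, Plcg1 -0.0767, Plcg2 -0.251, Tnip3 -0.0871, Ifi47 -0.635, Gbp3 -0.983, Procr -0.869, Ly6a -0.586, Gfi1 -0.457, Mycn -0.363, Neo1 -1.6, Cdkn1c -0.219, Tie1 -0.225, Sox18 -0.814, Myc 1.09. Those that turned with genotype only were Tnfsf9 -0.107, Ifi47 -0.124, Gbp3 -0.415, Procr -0.318, Ly6a -0.0533, Neo1 -1.03, Sox18 -0.265. With 1 library left out the values ran from lowest to highest as follows, turning without WT3, which leaves WT1 and WT2 as the WT: Nfkbie -0.0149 to 2.52, Cd27 -0.446 to 4.4, Tnfsf9 -0.672 to 4.78, Tnfrsf13c -0.352 to 3.37, Tnfrsf1a -0.498 to 2.74, Plcg1 -0.0879 to 2.66, Plcg2 -0.205 to 3.24, Tnip3 -0.0919 to 7.45, Ifi47 -0.642 to 2.81, Gbp3 -0.991 to 5.05, Procr -0.871 to 3.52, Ly6a -0.593 to 3.37, Gfi1 -0.458 to 3.16, Mycn -0.329 to 3.89, Neo1 -1.6 to 3.87, Cdkn1c -0.197 to 2.85, Tie1 -0.228 to 4.24, Sox18 -0.816 to 3.66, Myc -2.57 to 1.32.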
